A study of Mus musculus with 12 samples.

Results

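The genes described here are 6 S100 genes, S100a4, S100a6, S100a8, S100a9, S100a10 and S100a11, and 4 genes used as marks of neutrophils, Csf3r, Cxcr2, Ngp and Mmp8. They were taken by symbol, and all 10 were among the 24452 symbols of the count table. After a filter on low counts, 7 of them stood among the 14618 genes tested, and Cxcr2, Ngp and Mmp8 did not. RNA was measured in 12 stranded mRNA-seq libraries of kidney cortex from C57BL/6 mice, all labelled adult and male, 3 libraries in each of 4 groups. Control_water and Control_captopril were mice given saline in place of the disease agents, the former drinking water and the latter treated with captopril, an inhibitor of angiotensin-converting enzyme whose dose the labels did not give. GN_water and GN_captopril were mice with glomerulonephritis (GN, inflammation of the filtering units of the kidney) under the same 2 treatments. Disease was induced by intraperitoneal horse spleen apoferritin, 10 mg on 5 days a week, with lipopolysaccharide, 100 micrograms 3 times a week, for 6 weeks, and kidneys were taken at week 9. Library titles carried pairs of numbers, and whether these stand for pooled mice is not stated in the labels. A p-value therefore measures the spread between libraries only.

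S100 proteins are small calcium-binding proteins that mostly work as dimers. S100A8 and S100A9 pair as calprotectin, which fills the cytosol of neutrophils and is also made by monocytes, and which, once released, acts on the receptors Toll-like receptor 4 and RAGE. S100A10 and S100A11 bind annexins at membranes, and S100A4 and S100A6 are abundant in motile and proliferating cells, including fibroblasts and leukocytes. Neutrophils are drawn into the glomerulus by immune complexes in acute disease. Csf3r encodes the receptor for granulocyte colony-stimulating factor, Cxcr2 a receptor for neutrophil-attracting chemokines, Ngp neutrophilic granule protein and Mmp8 neutrophil collagenase.

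Library totals ran from 14.2 to 22.8 M counts. Levels are given as CPM, counts scaled to a common depth of 1 M after TMM scaling of the totals. The libraries did not all carry the markers of their labelled sex: 4 Y-linked genes summed to 121 to 144 CPM in Control_water and 124 to 129 in GN_captopril, and to at most 0.101 in Control_captopril and GN_water. Xist, expressed from the inactive X chromosome of female cells, lay at 314 to 375 CPM in Control_captopril, at 181 to 212 in GN_water and at no more than 0.182 in the other libraries. Within the same treatment, GN cannot be told apart from this marker difference, nor can captopril within the same disease state, and the interaction of GN and captopril is the same contrast as the markers. In GN averaged over both treatments the markers are balanced. The markers match in presence in GN_water against Control_captopril and in GN_captopril against Control_water. Xist was still lower in GN_water than in Control_captopril (log2 change -0.781, edgeR adjusted p under 0.05). In the first pair only the controls had captopril, and in the second only the GN mice. GN thus cannot be told apart from treatment within either pair, and GN averaged over both treatments is the mean of these comparisons. Adrenal marker genes summed to 1.89 to 358 CPM in Control_captopril and 1.2 to 122 in GN_captopril, and to at most 2.75 in the other groups.

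The 6 S100 genes lie on chromosome 3 in 2 stretches of the S100 cluster. In GRCm38 (mm10) coordinates of the GENCODE M21 annotation, S100a4 is at chr3:90603771-90606045, S100a6 at chr3:90612882-90624181 and S100a8 at chr3:90668978-90670035, all on the plus strand, and S100a9 is at chr3:90692632-90695721 on the minus strand. The gap between S100a8 and S100a9 is 22.6 kb. S100a11, at chr3:93520488-93526287, and S100a10, at chr3:93555080-93564643, both on the plus strand, lie 28.8 kb apart and 2.82 Mb beyond S100a9. Csf3r is at chr4:126024550-126044440, Cxcr2 at chr1:74153989-74161246, Ngp at chr9:110419747-110423012 and Mmp8 at chr9:7558456-7568485, all on the plus strand. S100a4 overlaps Gm42674, annotated on the same strand, so reads of the pair may be shared.

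The 150 bases before the RefSeq start (GRCm38.p6, gene strand, 5′ to 3′) are shown for the 5 S100 genes of the table of promoters and for Csf3r, the members with enough counts to be tested. RefSeq promoters were found for 9 of the 10 members, and S100a10 was not among them. Capitals mark matches, on either strand, to 4 motifs: the TATA box core TATAAA, the AP-1 site TGANTCA, the C/EBP half-sites TTGCNNAA and the PU.1 core GAGGAA.
S100a8, chr3:90668921-90669070, plus strand: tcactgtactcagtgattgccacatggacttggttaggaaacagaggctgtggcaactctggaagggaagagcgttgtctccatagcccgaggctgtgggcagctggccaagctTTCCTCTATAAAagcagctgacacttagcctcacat
S100a9, chr3:90695722-90695871, minus strand: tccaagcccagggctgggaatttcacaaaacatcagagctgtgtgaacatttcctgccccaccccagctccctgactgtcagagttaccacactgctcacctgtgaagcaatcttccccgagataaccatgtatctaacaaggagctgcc
S100a4, chr3:90603620-90603769, plus strand: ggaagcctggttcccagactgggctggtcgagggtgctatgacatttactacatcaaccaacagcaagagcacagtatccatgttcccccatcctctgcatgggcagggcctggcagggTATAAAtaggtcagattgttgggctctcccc
S100a6, chr3:90612744-90612893, plus strand: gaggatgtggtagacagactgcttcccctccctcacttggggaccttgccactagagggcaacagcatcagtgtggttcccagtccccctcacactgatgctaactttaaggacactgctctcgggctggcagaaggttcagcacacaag
S100a11, chr3:93520346-93520495, plus strand: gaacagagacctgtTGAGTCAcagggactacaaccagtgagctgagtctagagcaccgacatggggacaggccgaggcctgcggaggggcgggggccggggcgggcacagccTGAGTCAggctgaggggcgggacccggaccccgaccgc
Csf3r, chr4:126024509-126024658, plus strand: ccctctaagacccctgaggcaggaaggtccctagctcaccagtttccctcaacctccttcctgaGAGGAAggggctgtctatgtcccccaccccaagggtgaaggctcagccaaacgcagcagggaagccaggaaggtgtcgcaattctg
Positions are counted back from the start to the first base of a match, over the 250 bases searched. TATAAA was found 30 bases before the start of S100a8 and 31 before that of S100a4, and 12.4% of 32851 promoters held it. In S100a8 it abuts a PU.1 core on the other strand, 36 bases before the start, and a further match lies at 170. GAGGAA was also found 86 bases before the start of Csf3r, 81 before Cxcr2, 153 before S100a11 and 219 before Mmp8, and in 23.3% of all promoters. S100a11 held AP-1 matches at 136 and 38 bases, and 6.75% of promoters held one. TTGCNNAA was at 236 bases in S100a9, at 138 and 11 in Ngp and at 19 in Mmp8, against 9.56% of promoters. The S100a6 window held none of the 4 motifs. Some RefSeq starts lie inside the GENCODE gene. The Csf3r window ends at 126024658, and the GENCODE gene begins at 126024550. The S100a8 window ends at 90669070, and that gene begins at 90668978. The matches at 86 bases in Csf3r and at 30 and 36 in S100a8 thus lie within the GENCODE genes. A match is a description of these letters and not a measured binding site.

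With GN, the RNA of 6 of the 7 tested members rose when averaged over both treatments (edgeR quasi-likelihood test, Benjamini-Hochberg adjusted over 14618 genes, threshold 0.05), where 16.3% of all tested genes were called higher and 14.6% lower. The changes ran from 5.29-fold for Csf3r to 1.31-fold for S100a11, and S100a10 did not pass. The median log2 change of the 7 was 1.63, against -0.01 over all genes tested. In 5 of the 7, S100a4, S100a6, S100a8, S100a9 and Csf3r, all 6 GN libraries lay above all 6 control libraries, as they did for 5.38% of all genes tested. In bulk tissue, a change in the number of cells of a type and a change in RNA per cell cannot be told apart.

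**Figure D1:**
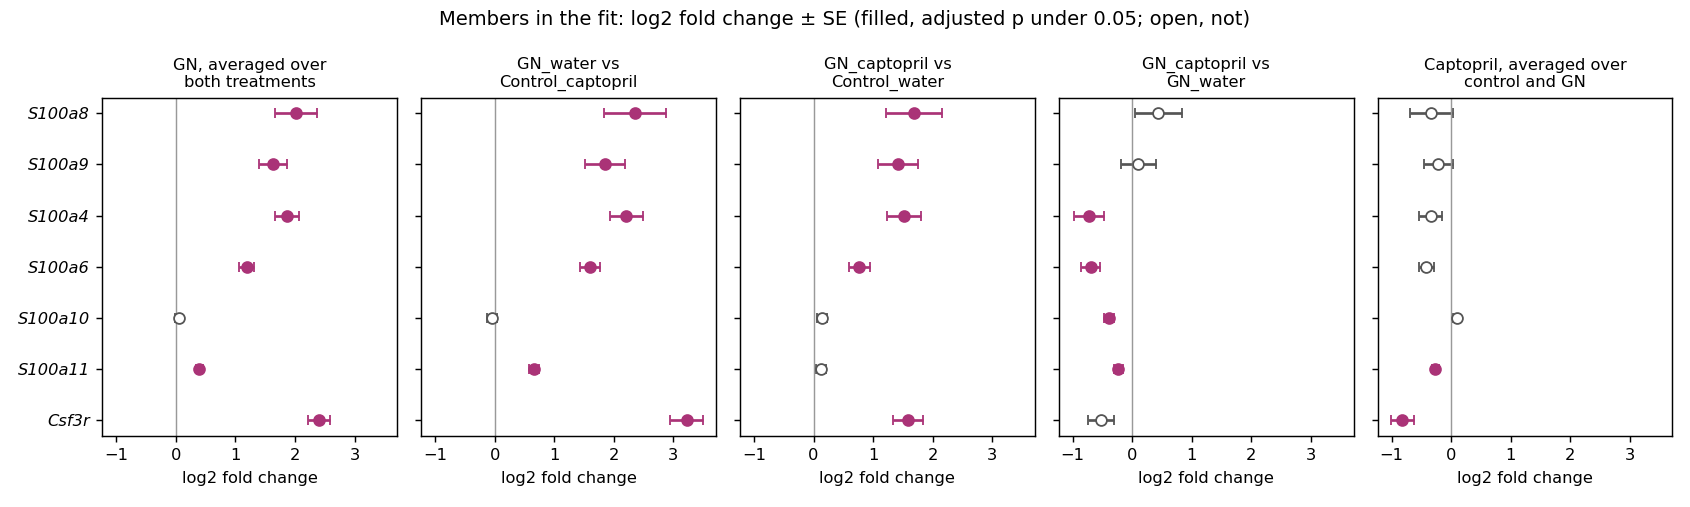
Log2 fold changes of the 7 tested members, with bars of ± SE. The comparisons drawn are GN averaged over both treatments and captopril averaged over control and GN. Also drawn are GN_water against Control_captopril, GN_captopril against Control_water and GN_captopril against GN_water. For GN averaged over both treatments, Csf3r lies at 2.40, S100a8 at 2.02 and S100a10 at 0.05, whose bar includes 0.

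S100a8, the smaller calprotectin subunit, was scarce in every library. Its level was 0.279, 0.425 and 0.451 CPM in the Control_water libraries and 0.269, 0.138 and 0.101 CPM in Control_captopril. It was 0.595, 1.40 and 0.692 CPM in GN_water and 1.26, 0.713 and 1.79 CPM in GN_captopril. Every GN library was above every control library, and the libraries differed most within the GN groups, where GN_water replicate 2 and GN_captopril replicates 1 and 3 were the highest. The counts behind these levels were 2 to 7 in controls and 13 to 34 in GN. S100a8 rose 4.06-fold in GN (log2 change 2.02 ± 0.35 SE, edgeR adjusted p = 7.78e-04).

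S100a9, the partner subunit, was low in controls and higher in GN as well. Controls held 0.465, 0.971 and 0.580 CPM with water and 0.404, 0.460 and 0.506 CPM with captopril. GN libraries held 1.15, 2.26 and 1.53 CPM with water and 1.93, 1.43 and 2.01 CPM with captopril, on 25 to 55 counts each. The groups did not overlap, although the highest control, Control_water replicate 2, came close to the lowest GN library. S100a9 rose 3.10-fold (log2 change 1.63 ± 0.24 SE, edgeR adjusted p = 2.12e-04). The number of S100a9 reads per S100a8 read ran from 1.12 in GN_captopril replicate 3 to 5 in Control_captopril replicate 3, the latter on 10 and 2 reads.

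Both subunits were also higher in GN_water than in Control_captopril and in GN_captopril than in Control_water. These pairs of groups match in the presence of sex-linked markers but differ in treatment. For S100a8 the log2 changes were 2.35 ± 0.52 SE (edgeR adjusted p = 0.00414) and 1.69 ± 0.47 (adjusted p = 0.0344), and for S100a9 they were 1.85 ± 0.34 (adjusted p = 0.00114) and 1.42 ± 0.34 (adjusted p = 0.0169). The second of these comparisons was the less firm. S100a8 lost its call without any 1 of its libraries except GN_captopril replicate 2 (adjusted p 0.0621 to 0.129), and S100a9 did without Control_water replicate 1 or 3 or GN_captopril replicate 3 (0.0506 to 0.0657). In GN_water against Control_water, S100a8 rose by 1.25 ± 0.47 (adjusted p = 0.0396), but not under DESeq2 (adjusted p = 0.0657), nor without GN_water replicate 2 (0.72, edgeR adjusted p = 0.24) or any 1 of the Control_water libraries (0.0616 to 0.139).

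Csf3r had the largest change of the tested members. Its controls stood at 1.72, 1.64 and 0.773 CPM with water and 0.448, 0.737 and 0.758 CPM with captopril. With GN it stood at 5.63, 7.19 and 5.34 CPM in the water libraries and 4.52, 3.67 and 4.52 CPM in the captopril libraries. The groups did not overlap: 63 to 175 counts in GN against 10 to 37 in controls. Csf3r rose 5.29-fold (log2 change 2.40 ± 0.19 SE, edgeR adjusted p = 1.71e-06), with a lower 95% confidence limit of 1.999 and an upper limit of 2.81 on the log2 scale. In the marker-matched comparisons it rose by 3.22 ± 0.27 (adjusted p = 4.49e-06) and 1.59 ± 0.26 (adjusted p = 0.00215).

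The other neutrophil genes were almost absent. Cxcr2 had counts of 5, 6 and 6 in Control_water, 4, 7 and 4 in Control_captopril, 6, 11 and 9 in GN_water and 6, 7 and 6 in GN_captopril. Its mean was 0.397 ± 0.0656 CPM in GN and 0.281 ± 0.0879 CPM in controls (SD, n = 6 libraries each; exact two-sided permutation test, p = 0.0346, adjusted over the 3 genes tested this way 0.0909). The ranges overlapped. Ngp had no count in any control library and 0, 4 and 0 in GN_water and 9, 1 and 2 in GN_captopril. Its mean in GN was 0.160 ± 0.225 CPM (exact permutation p = 0.0606, adjusted 0.0909). By the 16 counts of all GN libraries together, Ngp was at least 5.5-fold higher in GN than in controls, taking 3 counts over all controls, 0.0256 CPM, as the floor. GN_captopril replicate 1 held 9 of these counts, and without it the GN mean was 0.0725 CPM and the bound 2.78-fold. The exact permutation p ran from 0.0152, without either GN_water library that had no count, to 0.106, without any 1 control library. In edgeR with no low-count filter, Ngp had an adjusted p of 0.0539 for GN averaged over both treatments and of 0.0417 in GN_captopril against Control_captopril. The 0 in controls allows a level of up to that floor, by counting error alone. Mmp8 had 3, 0 and 1 counts in Control_water, 2, 0 and 0 in Control_captopril, 0, 3 and 4 in GN_water and 1, 1 and 4 in GN_captopril. Its means were 0.122 ± 0.105 and 0.0490 ± 0.0588 CPM, and the libraries of GN and control mixed (exact permutation p = 0.184, adjusted 0.184). The smallest p this test can give is 0.00216. None of the 3 genes passed after adjustment with all libraries, and up to 2 did when GN_water replicate 1 or 3 was left out.

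**Figure D2:**
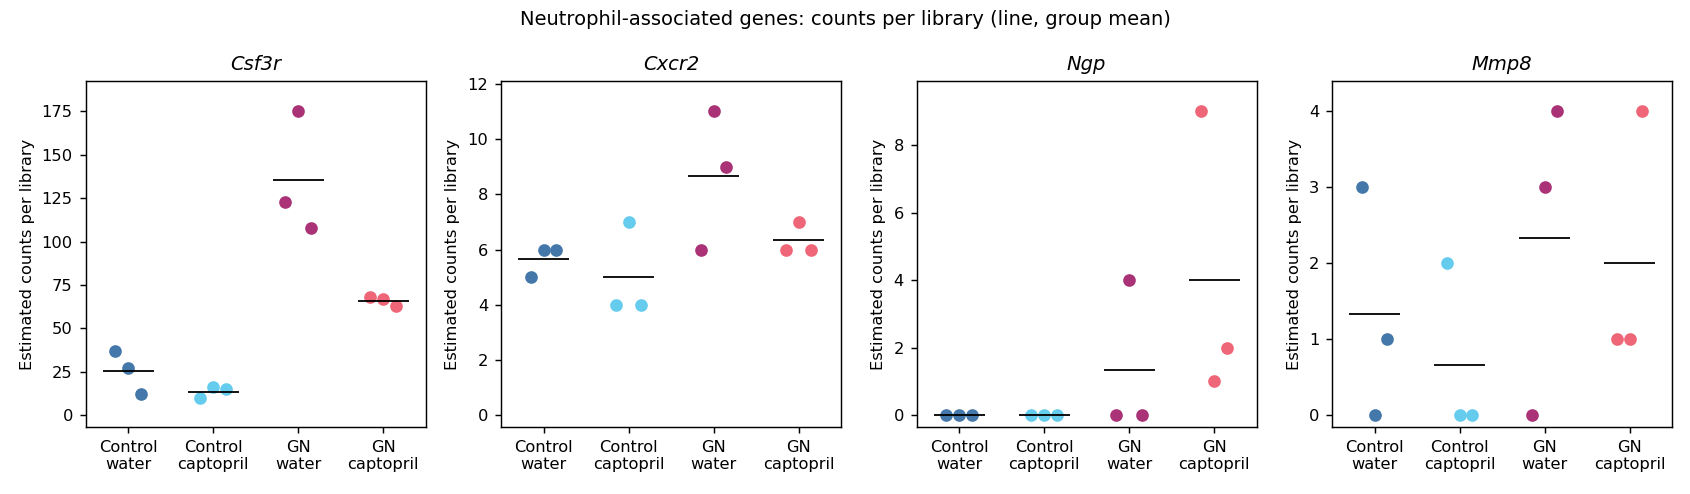
Counts of Csf3r, Cxcr2, Ngp and Mmp8 (vertical axis, reads) in each library, 1 point per library, by group. Csf3r separates GN from control, at 63 to 175 against 10 to 37 counts, while Cxcr2 stays at 11 counts or fewer, Ngp at 9 or fewer and Mmp8 at 4 or fewer.

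Many other genes of neutrophils were at or near 0 as well. The list of 14 granule genes also held Cebpe and Padi4, whose products are not granule proteins. Of the 14, 8 did not reach the filter: the azurophil granule genes Mpo (1 count over all 12 libraries), Elane (4), Ctsg (0) and Prtn3 (31), and Camp (10), Fcnb (0), Mmp25 (62) and Cebpe (12). Of 19 neutrophil surface and cytoplasm genes, 11 did not: Ly6g (1), Cxcr1 (1), Cd177 (15), Itgb2l (2), Retnlg (37), Stfa2l1 (3), Mrgpra2b (2), Trem1 (53), Il1r2 (35), Slfn4 (37) and Asprv1 (62). Among the tested genes of these lists, 6 of 6 granule genes and 6 of 8 surface genes rose with GN, where 16.3% of all genes did. Their median log2 changes were 2.10 and 4.05. Those that passed the filter include genes at very low levels in controls, so the counts describe these genes and do not stand for the whole lists.

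Among the granule genes, Chil3, a chitinase-like protein, rose by 3.62 ± 0.33 SE on the log2 scale (edgeR adjusted p = 4.83e-06). Lcn2, which binds bacterial siderophores and is also made by injured tubule, went from 4.61 ± 0.713 and 1.99 ± 0.292 CPM in the control groups to 27.5 ± 6.11 in GN_water and 6.22 ± 3.23 in GN_captopril (SD, n = 3). Its change was 2.10 ± 0.21 (adjusted p = 1.08e-05). Pglyrp1, a peptidoglycan-binding protein, changed by 2.10 ± 0.35 (adjusted p = 6.08e-04) and Padi4, the enzyme that citrullinates histones, by 2.37 ± 0.51 (adjusted p = 0.00369). Among the surface genes, the formyl peptide receptors Fpr1 and Fpr2, which neutrophils share with monocytes and macrophages, had very few counts in controls. Fpr1 went from 6 counts in all controls to 764 in all GN libraries (6.73 ± 0.37, adjusted p = 2.47e-07), and Fpr2 from 15 to 537 (5.09 ± 0.40, adjusted p = 1.71e-06). The integrin subunits Itgam and Itgb2, which form Mac-1 on neutrophils and macrophages alike, rose by 3.14 ± 0.26 (adjusted p = 2.92e-06) and 2.01 ± 0.19 (adjusted p = 5.85e-06).

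Markers of macrophages and monocytes moved with these genes: 14 of 15 rose and none fell, where 16.3% of all genes were called higher and 14.6% lower. Their median log2 change was 1.78, and their summed level was 218 to 277 CPM in control and 575 to 1510 CPM in GN libraries. Their part in the rise of Csf3r, S100a8 and S100a9 was not tested. Of the neutrophil genes below the filter, Ly6g and Cxcr1 had 1 count each over all libraries, and Mpo, Elane, Ctsg and Fcnb, which are transcribed mainly in precursors in the marrow, had 0 to 4. Some others had more counts in GN than in controls, such as Cd177 (13 against 2), Prtn3 (23 against 8) and Camp (8 against 2). Cebpe (4 against 8) and Cxcr1 (0 against 1) had fewer. These differences were not tested. Trem1, shared by neutrophils and monocytes, had 5 counts in controls and 48 in GN.

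Of 21 genes that draw neutrophils into tissue, 12 were tested and 10 of these rose, where 16.3% of all genes did. Their median log2 change was 1.71. Some reached the filter only through the GN libraries, such as Cxcl5 with 1 count in controls and 72 in GN, so the count describes these genes alone. Icam1, an endothelial ligand of leukocyte integrins, rose by 0.90 ± 0.06 SE (edgeR adjusted p = 8.57e-07) and Il1b, encoding interleukin 1 beta, by 1.92 ± 0.14 (adjusted p = 1.24e-06). Alox5ap, needed for leukotriene synthesis, rose by 1.51 ± 0.16 (adjusted p = 1.40e-05), and Selplg, the P-selectin ligand of leukocytes, by 1.50 ± 0.16 (adjusted p = 2.11e-05). The ligand of Csf3r, Csf3, had 2 counts over all libraries, Csf2 had 1 and Il17a 0. The Cxcr2 ligand gene Cxcl1 rose from 12 to 125 counts (3.27 ± 0.38, adjusted p = 3.25e-05).

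S100a4, also known as fibroblast-specific protein 1 and made by macrophages too, was low in all controls and high in GN. Control_water held 1.95, 3.52 and 3.16 CPM and Control_captopril 3.09, 2.95 and 2.63 CPM. GN_water held 12.8, 14.3 and 13.2 CPM, within a narrow range, and GN_captopril 4.58, 7.90 and 12.1 CPM, a wide one. All GN libraries were above all controls, and GN_captopril replicate 3 approached GN_water. S100a4 rose 3.65-fold over both treatments (log2 change 1.87 ± 0.20 SE, edgeR adjusted p = 1.69e-05), by 2.21 ± 0.27 in GN_water against Control_captopril (adjusted p = 6.23e-05) and by 1.52 ± 0.29 in GN_captopril against Control_water (adjusted p = 0.0054).

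S100a6, or calcyclin, showed the same order at a higher level. It measured 13.4, 13.8 and 18.6 CPM in Control_water and 14.3, 15.3 and 11.98 CPM in Control_captopril. It measured 46.2, 39.8 and 40.3 CPM in GN_water and 21.5, 22.3 and 34.3 CPM in GN_captopril. The lowest GN library was above the highest control, and GN_captopril replicate 3 again stood nearest to GN_water. The rise was 2.27-fold (log2 change 1.19 ± 0.12 SE, edgeR adjusted p = 1.21e-05), with 1.60 ± 0.17 (adjusted p = 1.75e-05) and 0.77 ± 0.17 (adjusted p = 0.0133) in the marker-matched comparisons. The latter did not pass without Control_water replicate 1 (adjusted p = 0.053) or 2 (0.0559).

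S100a11, or calgizzarin, was the most abundant member and the one with the smallest rise. It lay at 118, 147 and 136 CPM in Control_water and 114, 103 and 107 CPM in Control_captopril, and at 179, 159 and 174 CPM in GN_water and 141, 136 and 159 CPM in GN_captopril. The ranges overlapped, since Control_water replicate 2 exceeded 2 of the GN_captopril libraries. The change over both treatments was 1.31-fold (log2 change 0.39 ± 0.06 SE, edgeR adjusted p = 2.51e-04). It was 0.66 ± 0.08 in GN_water against Control_captopril (adjusted p = 7.16e-05), and 0.12 ± 0.08 in GN_captopril against Control_water, which did not pass (adjusted p = 0.359).

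S100a10, or p11, the annexin A2 partner that helps to hold plasminogen at the cell surface, sorted the libraries by their sex-linked markers and not by disease. It lay at 63.4, 81.5 and 83.2 CPM in Control_water and 80.5, 81.7 and 89.0 CPM in GN_captopril, the groups with Y-linked RNA. It lay at 117, 110 and 114 CPM in Control_captopril and 110, 107 and 113 CPM in GN_water, the groups with Xist. The mean of the latter 2 groups was 1.40-fold that of the former (log2 difference 0.49 ± 0.06 SE, edgeR adjusted p = 1.86e-05), and the libraries did not overlap. This difference is the interaction contrast divided by -2, so it cannot be told apart from an effect of captopril that differs between control and GN mice. GN averaged over both treatments gave 0.05 ± 0.06 (adjusted p = 0.599), with a 95% interval of -0.08 to 0.18. The marker-matched comparisons gave -0.05 ± 0.08 (adjusted p = 0.71) and 0.14 ± 0.09 (adjusted p = 0.315).

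**Figure D3:**
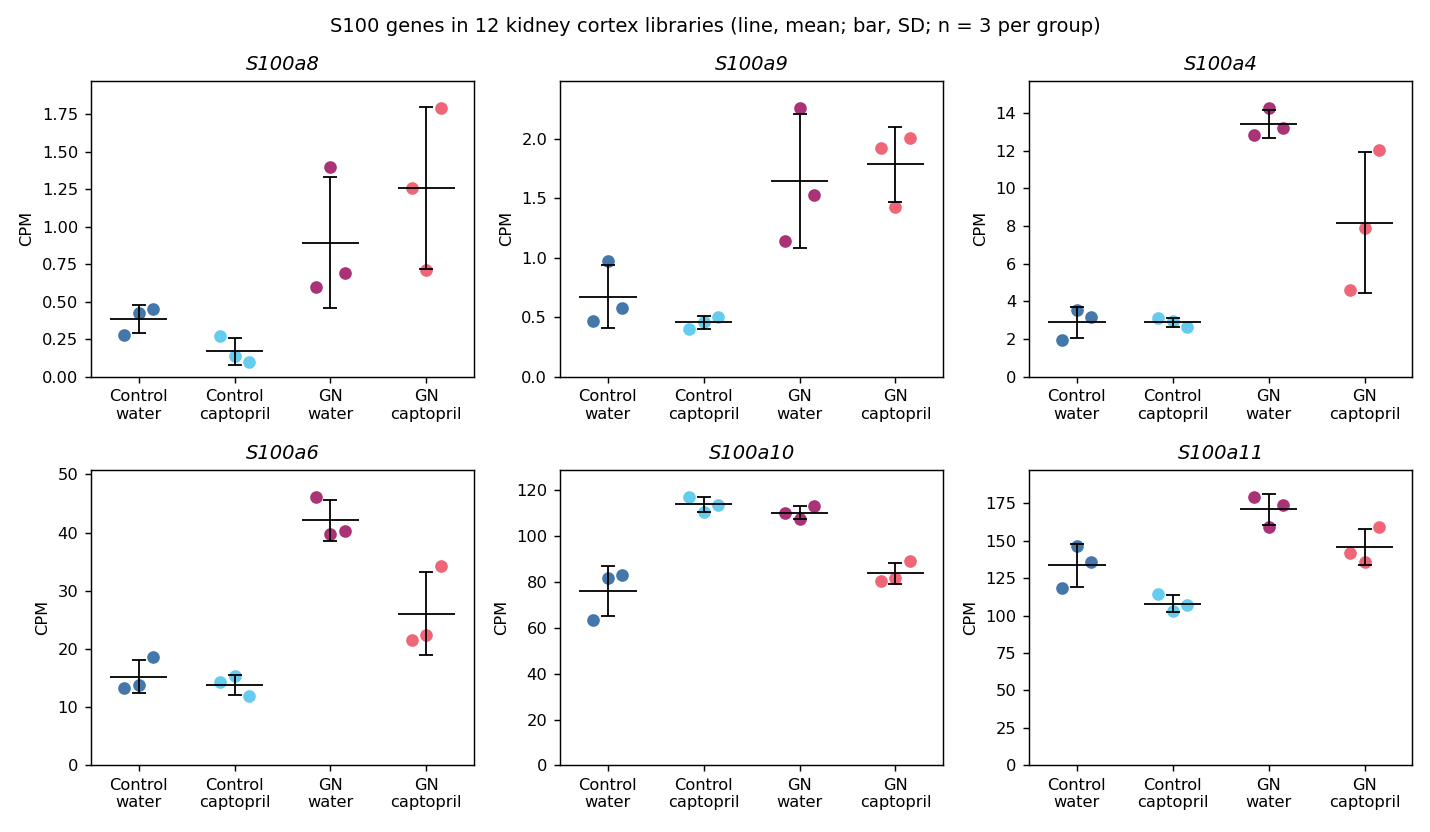
Levels of the 6 S100 genes in CPM (linear axes from 0, 1 panel a gene) in each library, with the mean and SD (n = 3) of each group. S100a4, S100a6, S100a8 and S100a9 are higher in all GN libraries than in all controls, while S100a10 is high in Control_captopril and GN_water, at 107 to 117 CPM, and low in the other groups, at 63.4 to 89.0.

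Levels between genes were compared as CPM per kb of annotated exon, in which transcripts with retained introns lengthen some genes. In GN_water the order was S100a11 at 334.5 ± 20.3, S100a10 at 90.8 ± 2.30, S100a6 at 30.8 ± 2.58 and S100a4 at 23.0 ± 1.28 CPM per kb (SD, n = 3). S100a9 followed at 3.15 ± 1.08, then Csf3r at 1.68 ± 0.276 and S100a8 at 1.29 ± 0.631. The SD ranges of Csf3r and S100a8 overlapped. Cxcr2 came next at 0.128 ± 0.0329, and Ngp at 0.0448 ± 0.0777 and Mmp8 at 0.0441 ± 0.0412 were last and not separated. In Control_water the leading order was the same, with S100a11 at 261 ± 27.8, S100a10 at 62.7 ± 9.03, S100a6 at 11.2 ± 2.13 and S100a4 at 4.93 ± 1.40. Calprotectin RNA therefore stayed far below the RNA of the other S100 members, with S100a8 at 0.555 ± 0.133 CPM per kb in Control_water and 1.81 ± 0.778 in GN_captopril.

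Under the same drink, all 7 tested members were higher in GN_water than in Control_water, where 27.4% of all genes were called higher. In GN_captopril against Control_captopril, 6 rose, where 20.5% of all genes did, and S100a10 fell, where 19.3% did. The direction of S100a10 thus differed between these comparisons: it rose by 0.54 ± 0.09 SE on the log2 scale with water (edgeR adjusted p = 1.74e-04) and fell by 0.44 ± 0.09 with captopril (adjusted p = 0.00116). The interaction was -0.98 ± 0.12 (adjusted p = 1.86e-05), and S100a10 was the only one of the 7 called, where 27.1% of all genes were called lower. Others joined it when 1 library was left out: S100a6 without Control_water, Control_captopril or GN_captopril replicate 3 (adjusted p 0.00258 to 0.047), S100a4 without GN_captopril replicate 3 (0.0114), Csf3r without Control_water replicate 3 (0.0441) and S100a8 without GN_water replicate 2 (0.0266) or GN_captopril replicate 2 (0.0458). Both of its comparisons cross the sex-linked markers. In the marker-matched comparisons, 6 members were higher in GN_water than in Control_captopril, where 16.9% of all genes were, and 5 in GN_captopril than in Control_water, where 7.05% were.

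Captopril was compared within the diseased and within the control mice. In GN_captopril against GN_water, 4 of the 7 members were lower and none higher, where 25.5% of all genes were called lower. S100a6 was 0.616-fold of its GN_water level (log2 change -0.70 ± 0.16 SE, edgeR adjusted p = 0.00341), S100a4 0.606-fold (-0.72 ± 0.25, adjusted p = 0.0324), S100a10 0.761-fold (-0.39 ± 0.09, adjusted p = 0.00222) and S100a11 0.851-fold (-0.23 ± 0.08, adjusted p = 0.0355). Csf3r changed by -0.52 ± 0.22 and did not pass (adjusted p = 0.0693), but passed without Control_water replicate 3 (0.0293) and with the spread taken from these 2 groups only (0.0432). With that spread, S100a4 (0.0668) and S100a11 (0.0734) did not pass. The calls for S100a4 and S100a11 were lost when any 1 of GN_water replicates 1 to 3 or GN_captopril replicates 1 and 2 was left out, with adjusted p up to 0.105 for S100a4 and 0.245 for S100a11. With DESeq2 size factors in edgeR, that of S100a11 was 0.0514. S100a8 and S100a9 gave 0.44 ± 0.40 (adjusted p = 0.391, 95% interval -0.42 to 1.30) and 0.10 ± 0.29 (adjusted p = 0.805, -0.53 to 0.73), and both intervals include a fall as well as a rise.

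The lower levels cannot be told apart from the sex-linked markers, which separate these groups with no overlap. Other cell markers moved with them. Of the macrophage and monocyte markers, 12 of 15 were lower in GN_captopril than in GN_water, where 25.5% of all genes were. Their summed levels were 575 to 1060 against 1100 to 1510 CPM. Of the 12 tested fibroblast markers, 11 were lower, at 470 to 705 against 793 to 1070 CPM. Markers of injured tubule were lower in 7 of 10, at 1160 to 1450 against 4320 to 4650 CPM. Spp1 made up most of this sum, at 888 ± 123 CPM in GN_captopril and 3706 ± 143 in GN_water (SD, n = 3). In controls Spp1 stood at 2459 ± 173 CPM with captopril and 870 ± 19.6 with water, so it was higher in the groups with Xist. In GN_captopril, replicate 3 had the highest macrophage sum, 1057 CPM against 575 and 589, and also the highest S100a4 and S100a6. The same library was highest of the 3 in fibroblast markers (705 CPM against 470 and 509), fat markers (414 against 48.2 and 175) and adrenal markers (122 against 1.20 and 20.0). The part of these cells in the S100 levels was not tested.

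In controls, captopril went with 1 higher and 2 lower members, where 15.4% of all genes were called higher and 17.0% lower. S100a10 was higher by 0.58 ± 0.09 SE on the log2 scale (edgeR adjusted p = 1.68e-04), and S100a11 fell by 0.31 ± 0.08 (adjusted p = 0.0128), which was lost without Control_water replicate 2 (0.0641) or Control_captopril replicate 2 (0.0538). Csf3r fell by 1.11 ± 0.32 (adjusted p = 0.0155), on 10 to 16 counts in Control_captopril, and this was lost without Control_water replicate 1 or 2 or Control_captopril replicate 1 (adjusted p 0.0566 to 0.0714). Averaged over control and GN mice, where the markers are balanced, 2 members were lower, where 3.34% of all genes were called lower. S100a11 fell by 0.27 ± 0.06 (adjusted p = 0.0186) and Csf3r by 0.82 ± 0.19 (adjusted p = 0.0254). Each call was lost when 1 of several libraries was left out: for S100a11, GN_water replicate 1 or 3, and for Csf3r, Control_water replicate 1 or 2, Control_captopril replicate 1, GN_water replicate 2 or GN_captopril replicate 2. S100a6 gave -0.42 ± 0.12 (adjusted p = 0.0574), past the threshold under DESeq2 (adjusted p = 0.0169).

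The other S100 genes gave a different picture from the members in GN. Of 10 listed, S100a3, S100a5, S100a7a, S100a14, S100b and S100z did not pass the filter, with at most 73 counts each over all libraries. Of the 4 tested, S100a16 rose by 0.23 ± 0.05 SE (edgeR adjusted p = 0.00421), S100g, the vitamin D-dependent calbindin of the distal nephron, fell by 0.29 ± 0.07 (adjusted p = 0.00564), and S100a1 (-0.03 ± 0.05) and S100a13 (0.03 ± 0.07) did not pass. All 4 shared the pattern of S100a10, for which 27.1% of all genes were called: they were higher in the groups with Xist than in those with Y-linked RNA, S100g by 2.14-fold (log2 difference 1.09 ± 0.07, adjusted p = 2.54e-08), S100a13 by 1.51-fold (0.59 ± 0.07, adjusted p = 2.09e-05), S100a16 by 1.38-fold (0.47 ± 0.05, adjusted p = 6.01e-06) and S100a1 by 1.33-fold (0.41 ± 0.05, adjusted p = 6.63e-06). Among the members other than S100a10, the smallest adjusted p in that contrast was 0.0635, for S100a6 (0.28 ± 0.12).

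Binding partners and receptors of S100 proteins rose in part. Of 13, 6 were higher in GN and 1, Anxa11, lower, with a median log2 change of 0.11. Over all genes tested, 16.3% were called higher and 14.6% lower. Anxa2, the partner of S100a10, stood at 59.3 ± 6.59 CPM in Control_water and 64.6 ± 3.59 in Control_captopril, and at 133.5 ± 3.86 in GN_water and 82.2 ± 15.1 with GN and captopril (SD, n = 3). It rose with GN by 0.76 ± 0.08 SE (edgeR adjusted p = 1.26e-05), where S100a10 did not pass. Anxa1, an annexin of leukocytes that binds S100A11, rose by 1.06 ± 0.13 (adjusted p = 3.82e-05) and Anxa5 by 0.34 ± 0.04 (adjusted p = 1.54e-05). Tlr4, the lipopolysaccharide receptor that calprotectin also engages, rose by 0.77 ± 0.09 (adjusted p = 4.32e-05). In GN_captopril against GN_water, 8 of these 13 were lower and 1 higher, where 25.5% of all genes were called lower.

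**Figure D4:**
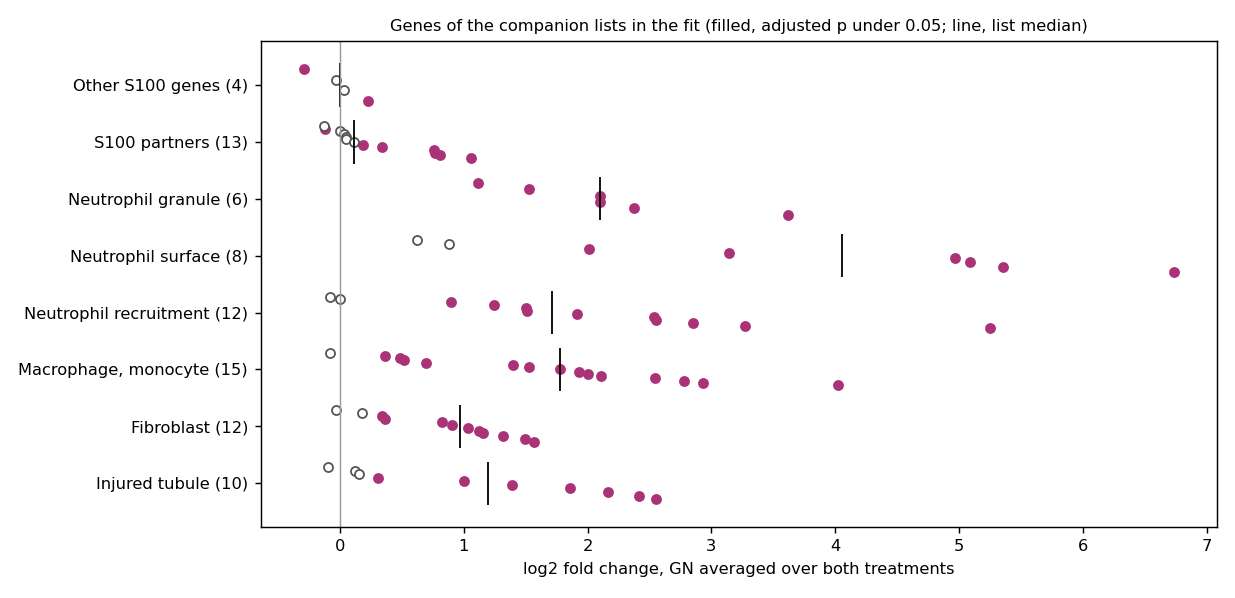
Log2 change in GN averaged over both treatments (horizontal axis) for each tested gene of the lists drawn, 1 point a gene, with list medians. The lists are other S100 genes, S100 partners, neutrophil granule, surface and recruitment genes, and markers of macrophages and monocytes, fibroblasts and injured tubule. The members are not drawn. The medians lie at 4.05 for the 8 tested of 19 neutrophil surface genes and 2.10 for the 6 tested of 14 granule genes. Some, such as Fpr1 with 6 counts in controls, reached the filter only through GN libraries, so these medians do not stand for the whole lists. The median is 1.78 for all 15 macrophage and monocyte markers. It is 0.00 for the 4 tested of 10 other S100 genes and -0.01 over all genes tested.

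Of the remaining markers, 10 of 12 tested fibroblast genes rose in GN (median log2 change 0.97), as did 7 of 10 injured tubule genes (1.19) and 7 of 8 genes of red blood cells (0.54). Kidney cortex genes gave 2 higher and 4 lower of 10. Over all genes tested, 16.3% were called higher and 14.6% lower. The smallest edgeR adjusted p was 0.751 among 6 adrenal genes (Star), 0.171 among 5 fat genes (Fabp4) and 0.112 among 4 Y-linked genes (Ddx3y), and it was 0.521 for Xist. Kidney cortex genes summed to 40900 to 47600 CPM in Control_water and 39100 to 40900 in GN_captopril. In the groups with Xist they summed to less, 20400 to 23700 in Control_captopril and 18000 to 21600 in GN_water. Kap, the most abundant of them, had means of 30920 and 28210 CPM in the former groups and 8865 and 6911 in the latter.

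The genes nearest each tested member over the 12 libraries were found by the root mean square difference of log2 CPM, after centring each gene on its mean. Profiles were not scaled, so genes that both change little have a small value whatever their directions. S100a6 was nearest to Vim (0.152), Plac8 (0.153) and Col6a2 (0.166), and S100a4 to Pltp (0.265), Tyrobp (0.278) and Tnfaip8l2 (0.279). S100a11 was nearest to Lgals1 (0.0917), Npdc1 (0.108) and H2-T23 (0.115), and S100a10 to Tmem109 (0.0848), Tspan15 (0.0877) and Zbtb46 (0.0917). Csf3r was nearest to Evi2b (0.241), Cd22 (0.307) and P2ry12 (0.379). S100a8, with few counts, had the least close neighbours of the 7, C4b (0.407), Itgbl1 (0.424) and Eomes (0.490), and S100a9 was nearest to Dtl (0.293), Il4i1 (0.303) and Il12rb1 (0.320). Between the members, S100a8 and S100a9 differed by 0.392, S100a4 and S100a6 by 0.404 and S100a10 and S100a11, which are chromosome neighbours, by 0.368. The last value does not mean that S100a10 and S100a11 moved together. In Control_captopril against Control_water their log2 changes were 0.58 and -0.30. The largest difference was between S100a10 and Csf3r, at 1.32.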

How the data were processed

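The authors deposited a table of estimated counts per gene symbol, in which 86.5% of entries were whole, and one of RPKM. The submitters' processing notes name Bowtie2, Partek and mm10. Tool versions and counting rules were not given in the sources used here, so reads shared by near-identical or overlapping genes may have been divided. Estimated counts were rounded. The deposited RPKM values were not used for levels, because the length they imply was 1.18 to 12.0 times the annotated exon length for the members. Genes passed filterByExpr (minimum count 10, total 15) and were fitted with edgeR 4.0.16 (TMM, quasi-likelihood, 1 mean for each of the 4 groups, 12 libraries) in R 4.3.3, which was tested on simulated data. The 9 comparisons had p-values adjusted by Benjamini-Hochberg at 0.05. SE came from the estimate and its F statistic. Genes below the filter were tested by exact permutation of CPM over 6 against 6 libraries (924 arrangements). DESeq2 1.42.0 was an alternative tool, and matplotlib 3.10.9 drew the figures. CPM for profiles were log2(CPM + 0.1). Named genes were the members, up to 4 called genes per companion list by adjusted p, and the 3 nearest genes to each tested member. List genes below the filter, Cxcl1, Cxcl5, Csf3, Csf2, Il17a, Anxa11 and Hdc were named after their values were seen. The members and the lists were chosen with earlier results of these data known. Replicates of a group differed beyond sampling noise, so none was counted as a duplicate. Intervals and floors cover counting error or the spread of libraries only.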

Additional observations from a re-analysis of the deposited data

Results flagged for a closer look

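The effect of GN on S100a10 differed between treatments, by a test of the difference itself: the log2 change under captopril minus that under water was -0.978 (edgeR interaction, adjusted p = 1.86e-05). Of 14618 genes tested, 7406 were called in this contrast in either direction, so the result is not particular to S100a10. The 6 libraries above and the 6 below split by Xist and Y-linked RNA in the same way, and the treatment and the markers cannot be told apart in this contrast.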

How the results depend on the processing

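The count of members called in GN averaged over both treatments stayed at 6 under every alternative tried (DESeq2 size factors in edgeR, no low-count filter, DESeq2, a replicate block, the spread of the compared groups only where it could be fitted, and leaving out each library or both libraries richest in adrenal markers). GN_water against Control_captopril likewise stayed at 6. Leaving out 1 library gave 6 to 7 members in GN_water against Control_water, 7 to 7 in GN_captopril against Control_captopril, 2 to 5 in GN_captopril against GN_water, 1 to 3 in Control_captopril against Control_water, 1 to 3 for captopril averaged, 2 to 5 in GN_captopril against Control_water, 1 to 3 for the interaction and 0 to 2 of the 3 genes below the filter. Without both adrenal-marker libraries, 3 members were called in GN_captopril against Control_water and 3 in the interaction, where S100a4 (-1.19) and S100a6 (-0.90) joined S100a10. Directions turned for values that did not pass: S100a10 with GN (-0.013 to 0.081 over the libraries left out, the lowest without Control_water replicate 1), S100a9 in GN_captopril against GN_water (-0.049 to 0.453, the lowest without GN_water replicate 1), S100a4 with captopril in controls (-0.206 to 0.209, negative without replicate 1 of Control_water or Control_captopril), S100a6 there (-0.222 to 0.031, positive without Control_water replicate 3) and the S100a11 interaction (-0.00375 without the adrenal-marker libraries). The cause was not tested. Deviations of same-numbered libraries from their group means had correlations of -0.236 to 0.235 over 18 pairs, 4 above 0.1. The highest was between replicates 3 of Control_captopril and GN_captopril, the libraries richest in adrenal markers. With the replicate block, genes called for GN went from 4516 to 4684, members stayed at 6, and S100a8 was lost in GN_water against Control_water (adjusted p = 0.058). Genes called in GN_captopril against Control_water went from 1765 to 952 with the spread of these groups only. Depth limits S100a8, S100a9, Cxcr2, Ngp and Mmp8, at 55 counts or fewer in any library.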

Other observations

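Hdc, encoding histidine decarboxylase and listed among the neutrophil surface and cytoplasm genes, was chosen for mention after its values were seen. In controls it stood at 0.285 ± 0.0697 CPM with water and 57.3 ± 25.0 with captopril, and in GN mice at 72.7 ± 8.33 with water and 0.779 ± 0.205 with captopril (SD, n = 3), high in the groups with Xist and low in those with Y-linked RNA. GN averaged over both treatments did not pass for it (log2 change 0.88 ± 0.48 SE, edgeR adjusted p = 0.183).
The summed level of the neutrophil surface genes, 45.1 to 100 CPM in Control_captopril against 10.4 to 13.4 in Control_water, includes Hdc.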
